A study of Mus musculus with 4 samples.

Results

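The kappa light chain variable genes (Igkv genes) were defined as every feature whose symbol starts with Igkv, which gave 160 of the 32287 features in the count tables. All 160 were matched by Ensembl identifier to GENCODE M21, the GRCm38 annotation used here, which lists 100 as V genes and 60 as V pseudogenes. They were measured in popliteal lymph nodes (PLNs), the nodes that drain the ankle, of male C57BL/6 mice on 4 Visium capture areas, where barcoded spots capture the poly-adenylated RNA of a tissue section and each molecule is counted once by its unique molecular identifier (UMI). The WT area held 10 PLNs of 5 wild-type mice and the Early area held 6 PLNs of 3 TNF-Tg mice, both at 5.5 months of age. The 2 Advanced areas, Advanced 1 and Advanced 2, each held 6 PLNs of 3 TNF-Tg mice aged 8.5 to 9 months. TNF-Tg mice of the line used carry a single copy of a tumor necrosis factor transgene and develop inflammatory-erosive arthritis, called Early or Advanced by age. Evan's blue dye had been injected into the hindpaw of the mice to mark the nodes. Nodes of several mice shared each area and no table tied spots to nodes, so values were computed per area, and genotype and age cannot be told apart between WT and Advanced.

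An antibody is built from paired heavy and light chains, and most mouse light chains are of the kappa type. Each developing B cell joins 1 Igkv gene to 1 joining segment (Igkj) by rearrangement of the locus, and the joined exon is spliced to the single constant gene Igkc, so that daughters of 1 B cell carry the same V gene. The V exon stands near the start of the finished transcript, whereas the poly(A) tail used for capture in this assay follows Igkc at the other end. Plasma cells, which secrete antibody, hold far more light chain RNA than resting B cells and gather along the medullary cords and sinuses of a node.

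Very few Igkv molecules were counted. The 160 genes had 143 UMIs in all, with 17 in WT, 48 in Early, 32 in Advanced 1 and 46 in Advanced 2. Igkc, the constant gene that every kappa chain shares, had 66592, 91146, 89686 and 93454 UMIs, respectively. At this depth 40 Igkv genes (25% of the 160) had at least 1 UMI, against 58.1% of all features, and 120 were at 0 on every area. The total of an area was between 1808678 and 5180493 UMIs, and a count of 0 allows a level of up to 1.66 CPM (UMIs per 1000000) in WT, 0.579 in Early, 0.888 in Advanced 1 and 0.938 in Advanced 2 (a floor of 3 counts, for counting error only). The tissue was checked by its markers, and all 8 B cell and all 7 T cell markers had UMIs on every area. Fat markers took 4.47 to 10.7 of every 10000 UMIs on the 4 areas and red blood cell markers 3.71 to 14.8.

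The genes with the most UMIs are close copies of other Igkv genes, so the stretches by which a read can tell them apart are shown first. The last 120 bases of the V exon, all of them coding sequence in the annotation, are given 5′ to 3′ from the GRCm38 reference, in lower case, with the bases that differ from the closest other Igkv gene in capitals. Igkv10-96 (chr6:68631963-68632082, minus strand) and its closest copy Igkv10-94 (chr6:68704508-68704627, minus strand) differed at 12 of these bases and were identical at 282 of the 298 bases of the exon. Igkv2-109 (chr6:68303039-68303158, plus strand) differed from Igkv2-116 at 7 of the 120 bases. Igkv3-2 (chr6:70698948-70699067, plus strand) and Igkv3-1 (chr6:70704058-70704177, plus strand) differed from each other at 6.
Igkv10-96: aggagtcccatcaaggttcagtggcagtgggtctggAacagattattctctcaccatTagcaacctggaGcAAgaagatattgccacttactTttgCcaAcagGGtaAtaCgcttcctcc
Igkv10-94: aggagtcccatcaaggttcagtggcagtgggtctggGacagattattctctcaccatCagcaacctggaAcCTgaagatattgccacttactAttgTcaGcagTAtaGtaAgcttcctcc
Igkv2-109: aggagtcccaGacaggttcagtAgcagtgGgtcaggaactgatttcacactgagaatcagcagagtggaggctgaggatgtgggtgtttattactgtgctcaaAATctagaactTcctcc
Igkv3-2: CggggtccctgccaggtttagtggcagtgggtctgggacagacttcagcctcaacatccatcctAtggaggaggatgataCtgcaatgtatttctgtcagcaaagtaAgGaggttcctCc
Igkv3-1: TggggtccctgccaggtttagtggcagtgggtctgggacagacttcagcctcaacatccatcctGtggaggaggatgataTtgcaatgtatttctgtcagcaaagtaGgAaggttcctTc
The capitals of Igkv10-96 cluster towards the end of the exon, which codes for part of the third hypervariable loop, where the light chain touches antigen. Igkv10-94 and Igkv2-116 had 0 UMIs on the 4 areas, while Igkv3-2 had 11 and Igkv3-1 had 8. Over all 160 genes, the median share of 90-base windows of the transcript that occur in no other Igkv gene was 99.7% for the 40 genes with a UMI and 100% for the 120 without. Under 50% of the windows were unique for 2 of the 40 and 1 of the 120. Igkv3-11 was among the former with 35.8%, so its UMIs are uncertain.

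Relative to all UMIs of an area, the Igkv level was nearly the same on the WT, Early and first Advanced areas. It was 9.40 CPM in WT (exact 95% Poisson interval 5.48 to 15.0), 9.27 in Early (6.83 to 12.3), 9.47 in Advanced 1 (6.48 to 13.4) and 14.4 in Advanced 2 (10.5 to 19.2). These intervals cover counting error only, and all 4 overlapped. The Advanced areas had a mean of 11.9 ± 3.47 CPM (SD, n = 2), so the gap between them was larger than the distance of Advanced 1 from WT or Early. Set against Igkc, there were 2.55 Igkv UMIs for every 10000 Igkc UMIs in WT (1.49 to 4.09), 5.27 in Early (3.88 to 6.98), 3.57 in Advanced 1 (2.44 to 5.04) and 4.92 in Advanced 2 (3.60 to 6.57). WT had the lowest value and Early the highest, and their intervals overlapped only between 3.88 and 4.09. Overlap of intervals is not a test, and this difference was not tested. The 4 values correspond to 3917, 1899, 2803 and 2032 Igkc UMIs for each Igkv UMI. In summed tissue, fewer cells of a type and less RNA per cell cannot be told apart.

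The lambda light chain and the heavy chain have V genes of their own, which were compared with Igkv on the same areas. The 3 Iglv genes had 239 UMIs in WT, 114 in Early, 117 in Advanced 1 and 68 in Advanced 2. For every 10000 UMIs of the lambda constant genes this came to 686, 67.5, 138 and 66.5. Most of these UMIs were from Iglv1, with 216, 82, 104 and 42. Thus 3 lambda V genes had more UMIs on every area than all 160 kappa V genes, although the lambda constant genes had only 3482 to 16886 UMIs. The 185 Ighv genes had 4, 11, 5 and 7 UMIs, or 0.517, 1.13, 0.494 and 0.468 for every 10000 UMIs of the heavy constant genes. On the log2 scale the Igkv ratio was lower than the Iglv ratio on 4 of 4 areas (mean difference -5.19, SD 2.05) and higher than the Ighv ratio on 4 of 4 areas (mean difference 2.69, SD 0.55). An exact two-sided sign-flip permutation test over the 4 areas gave p = 0.125 for each, the smallest p that 4 areas allow, so neither could pass 0.05. The Igkj segments Igkj1 to Igkj5 were at 0 on every area.

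**Figure D1:**
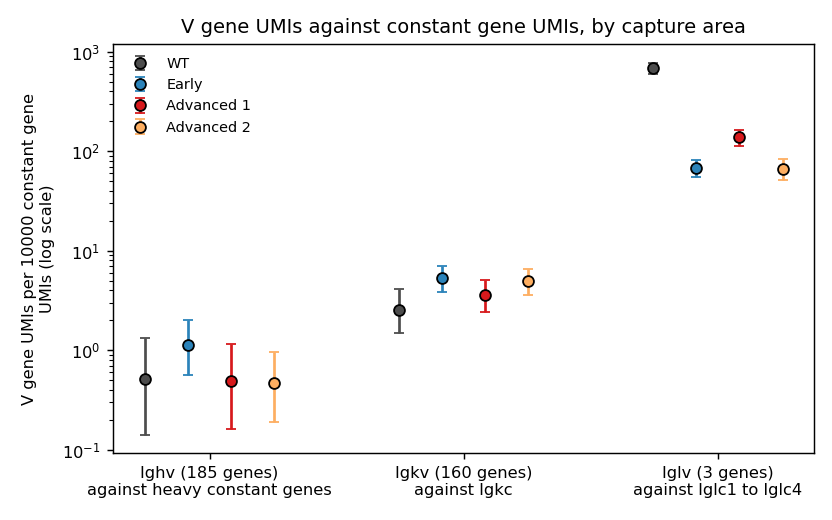
V gene UMIs per 10000 UMIs of the matching constant genes (log scale) for the heavy, kappa and lambda chains on each capture area, with exact 95% Poisson intervals. The kappa points lie between 2.55 and 5.27, above the heavy chain points and below the lambda points on each of the 4 areas.

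The Igkv UMIs were spread over many genes, each with a handful of counts. Of the 40 genes with a UMI, 19 had exactly 1 UMI on the 4 areas together, 3 had 10 or more, and no gene had more than 10 on an area. Only Igkv10-96, Igkv2-109 and Igkv3-2 were counted on all 4 areas, 5 genes were counted on 3 areas, 11 on 2 areas and 21 on a single area. The WT area had 13 genes, the Early area 22, Advanced 1 17 and Advanced 2 18. After analytic thinning to the 17 Igkv UMIs of the WT area, the expected numbers were 13, 11.6, 11.5 and 10.8 genes, so the larger numbers on the TNF-Tg areas went with their larger totals. WT and Early had 8 of these genes in common (61.5% of the WT genes and 36.4% of the Early genes). Early shared 9 with Advanced 1 (40.9% and 52.9%) and 9 with Advanced 2 (40.9% and 50%), and the 2 Advanced areas shared 7 (41.2% and 38.9%). WT shared 5 with Advanced 1 (38.5% and 29.4%) and 6 with Advanced 2 (46.2% and 33.3%). The 19 genes with 1 UMI could be counted on 1 area only, and other genes with few UMIs can be missed on an area. The shares in common were not computed over all features or over other genes of like counts, so they do not show that areas used different genes.

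Igkv10-96 (ENSMUSG00000094420, chromosome 6 from 68631963 to 68632442) was the leading gene. It had 2 UMIs in WT, 9 in Early, 4 in Advanced 1 and 10 in Advanced 2, or 11.8%, 18.8%, 12.5% and 21.7% of the Igkv UMIs, a mean share of 16.2%. It held the most UMIs in Early and Advanced 2, whereas Igkv3-1 led in WT with 3 UMIs and Igkv2-109 led in Advanced 1 with 5. Igkv2-109 had 1, 3, 5 and 3 UMIs and Igkv3-2 had 1, 4, 3 and 3 on the WT, Early and 2 Advanced areas in that order. Both had their fewest UMIs in WT, which also had the fewest Igkv UMIs in all.

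The other genes of the 10 with the largest mean share were counted on 2 or 3 areas. In the order WT, Early, Advanced 1 and Advanced 2, Igkv3-1, the V gene nearest to the J segments, had 3, 3, 2 and 0 UMIs. The pseudogene Igkv3-11 had 1, 1, 4 and 0, Igkv5-39 had 1, 3, 0 and 3, and Igkv14-111 had 2, 0, 0 and 2. Some genes had nearly all of their UMIs on 1 area. Igkv4-51 had 6 of its 7 in Early, Igkv3-4 had 5 of its 6 in Advanced 2, and Igkv1-117 had 4 of its 5 in Advanced 2. With 7 UMIs or fewer, such patterns were given mainly as counts. These genes were tested singly only between groups, in the edgeR fit with no filter on low counts described below. The log2 differences (Advanced minus Early) were -2.75 for Igkv4-51 (standard error 1.76), 1.72 for Igkv3-4 (1.92) and 4.39 for Igkv1-117 (2.8). None of these genes was significant after adjustment, against Early or against WT. Whether a gene differed between 1 area and all the others was not tested.

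The shares of the Igkv UMIs held by the leading genes were alike on the 4 areas within counting error. The first gene of each area held 17.6% of its Igkv UMIs in WT (exact 95% binomial interval 3.80 to 43.4), 18.8% in Early (8.95 to 32.6), 15.6% in Advanced 1 (5.28 to 32.8) and 21.7% in Advanced 2 (10.9 to 36.4). The first 5 genes held 52.9% (27.8 to 77.0), 52.1% (37.2 to 66.7), 56.3% (37.7 to 73.6) and 54.3% (39.0 to 69.1), respectively. The intervals of all 4 areas overlapped widely, and differences within them were not detectable at this depth. The effective number of genes (the inverse of the share of UMI pairs of 1 gene) differed more. It was 27.2 in WT, 16.1 in Early, 17.7 in Advanced 1 and 13.4 in Advanced 2. The WT value rested on 5 same-gene pairs of UMIs, and the difference was not tested. Many genes were tied at 1 to 3 UMIs, so which genes made up the first 5 beyond the leaders was decided by their mean share.

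**Figure D2:**
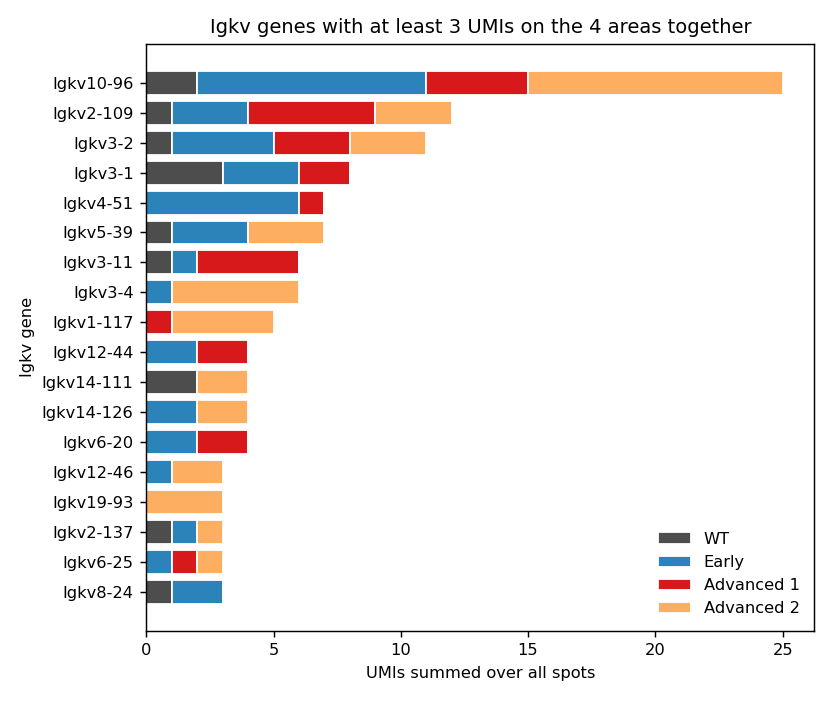
UMIs of the 18 Igkv genes with at least 3 UMIs, stacked by capture area. Igkv10-96 reaches 25 UMIs, 12 are from Igkv2-109 and 11 from Igkv3-2, and each remaining gene has 8 or fewer.

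Most Igkv UMIs were from annotated V genes, and they came from along the whole locus, which runs on GRCm38 from base 67555497 to base 70704177 of chromosome 6, with Igkc at 70726435 to 70726966. V genes had 134 UMIs and pseudogenes had 9, and 37 of the 100 V genes had a UMI against 3 of the 60 pseudogenes. The 3 pseudogenes were Igkv3-11 with 6 UMIs, Igkv9-119 with 2 and Igkv8-31 with 1. Divided by rank into 4 sets of 40 from the far end of the locus towards the J segments, the genes had 36, 31, 17 and 59 UMIs, and 10, 5, 6 and 19 of each 40 had a UMI. The set nearest to the J segments thus held 41.3% of the UMIs, with 9 of the 17 in WT, 23 of the 48 in Early, 14 of the 32 in Advanced 1 and 13 of the 46 in Advanced 2. It also held fewer pseudogenes than any other set, and UMIs for each V gene were not compared between the sets. Both orientations were counted, with 75 UMIs over the 75 genes on the plus strand and 68 UMIs over the 85 genes on the minus strand, where 20 of each had a UMI. Igkj and Igkc lie on the plus strand, and V genes of the opposite orientation rearrange by inversion.

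By family, the number after Igkv in a symbol, family 3 had the most UMIs, with 35 from 8 of its 13 genes. It was counted on each area, with 5, 12, 10 and 8 UMIs. Family 10 had 25 UMIs, all from Igkv10-96, and family 2 had 15 from 2 of its 10 genes. Family 4, the largest with 33 genes, had 9 UMIs from 3 genes. The 5 genes of family 15 and the 4 genes of family 11 were at 0.

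**Figure D3:**
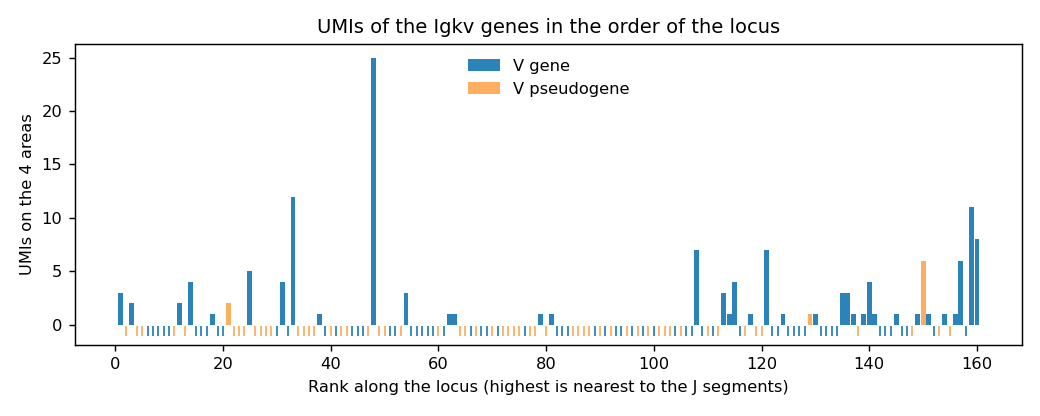
UMIs on the 4 areas together for each of the 160 Igkv genes in the order of the locus, with ticks under the axis for genes at 0. Bars stand along the whole locus, with 59 of the 143 UMIs in the last 40 ranks and 9 from pseudogenes. The last 40 ranks hold fewer pseudogenes than the other sets of 40.

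To ask whether any Igkv gene differed between the stages of arthritis, the UMIs of each area were summed and fitted across all genes with edgeR's quasi-likelihood test. Between the Advanced and Early areas, 1.16% of the 13102 genes tested passed an adjusted p of 0.05. Of the 160 Igkv genes, only Igkv10-96 had enough counts to be tested. Its log2 difference (Advanced minus Early) was 0.22 with a standard error of 0.97 (adjusted p = 0.993, edgeR). Against the WT area, 2.08% of the genes passed, and the log2 difference of Igkv10-96 (Advanced minus WT) was 0.82 with a standard error of 1.42 (adjusted p = 0.918, edgeR). Neither difference exceeded its error, and both had the opposite sign when Advanced 2 was left out, at -0.63 and -0.025. With no filter on low counts, the 40 Igkv genes with a UMI entered the edgeR fit and 0 passed in either comparison, where 0.773% and 1.34% of all 18769 genes passed. None had an unadjusted p under 0.05. DESeq2, run with the filter, did not call Igkv10-96 against Early and gave it no adjusted p against WT. WT and Early had 1 area each, and the test takes them to vary like the 2 Advanced areas.

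Antibody genes other than Igkv differed between the areas. In a list of 31 genes chosen for their link to kappa chains and antibody secretion, 25 could be tested. Between the Advanced and Early areas 5 were higher and 1 was lower by edgeR, with a median log2 difference of 0.28 over the 25 against 0.014 over all genes. Igkc took 368 of every 10000 UMIs in WT, 176 in Early, 265 in Advanced 1 and 292 in Advanced 2. Both Advanced areas lay above Early and below WT. The log2 difference of Igkc was 0.59 against Early (standard error 0.08, adjusted p = 9.98e-10, edgeR) and -0.51 against WT (standard error 0.08, adjusted p = 2.25e-08, edgeR), and it kept its sign without either Advanced area. The other genes higher than in Early were the heavy chain genes Ighg1, Ighg2b, Ighg2c and Igha, and the lambda constant gene Iglc3 was lower. The log2 difference of Igha, 0.91, was 0.23 without Advanced 1. Against WT, 2 of the 25 were higher (Ighg3 and Iglc2) and 5 lower (Igkc, Ighg1, Ighg2b, Iglv1 and Jchain, which links antibody units into polymers), with a median of -0.049. Here Ighg2b without Advanced 1 (0.0048) and Ighg3 without Advanced 2 (-0.023) turned the other way. DESeq2 called only Ighg1 in each comparison. WT thus had the highest Igkc level and the lowest number of Igkv UMIs for each Igkc UMI.

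Igkv UMIs were found in 14 of 833 spots in WT (1.68%), 37 of 1489 in Early (2.48%), 29 of 2015 in Advanced 1 (1.44%) and 38 of 1782 in Advanced 2 (2.13%). No spot held more than 3. Most of these were deep spots rich in Igkc. Their median was 18275 UMIs in WT, 12268 in Early, 9691 in Advanced 1 and 6275 in Advanced 2, against 272, 369, 275 and 379 in the other spots. Their median Igkc count was 727.5, 178, 278 and 217, against 2, 4, 3 and 6 in the other spots. Every spot with an Igkv UMI also had at least 1 Igkc UMI, and 3 of the 118 spots had fewer than 500 UMIs.

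**Figure D4:**
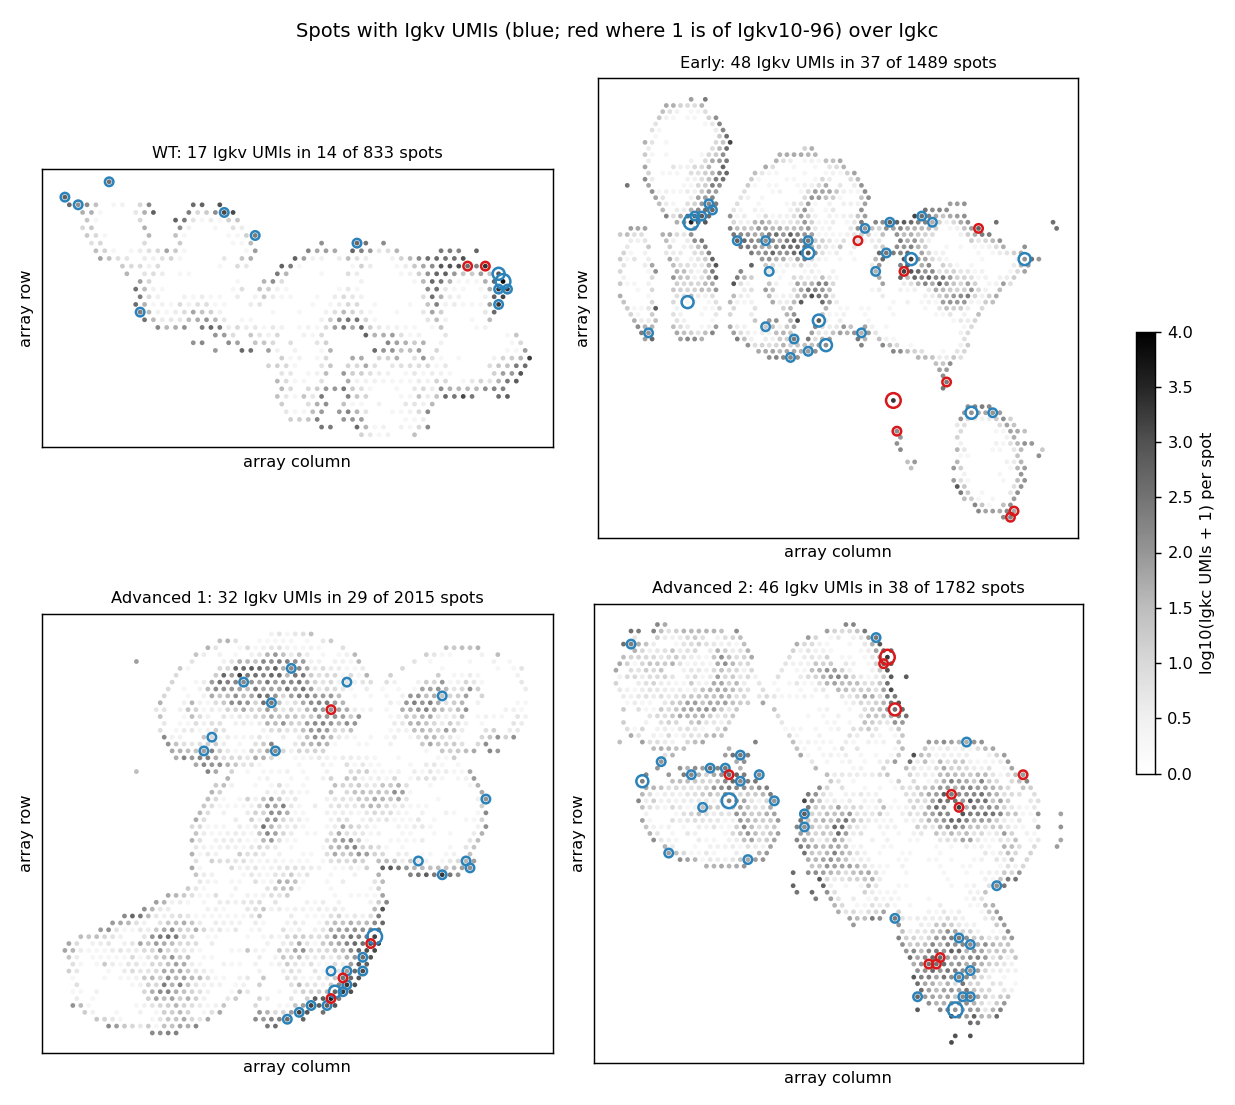
Spots under tissue on each area, shaded by log10(Igkc UMIs + 1), with circles around spots that hold Igkv UMIs (blue, or red where Igkv10-96 is among them; larger circles hold more). The circles lie mostly on dark spots, and neighbouring circles are common at the lower right of Advanced 1 and at the right of the WT area.

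Since a deep spot is more likely to hold any rare molecule, the composition of the spots with an Igkv UMI was compared with that of other spots above the same depth, set on each area at the lower quartile of the Igkv spots. Igkc took a larger share in the Igkv spots on 4 of 4 areas, by 2.46-fold in WT, 2.23-fold in Early, 2.72-fold in Advanced 1 and 1.14-fold in Advanced 2. The summed 8 plasma cell markers were 2.65-, 2.17-, 2.80- and 1.19-fold higher. Among them Jchain was 2.88-, 2.96-, 3.21- and 1.30-fold higher, and Xbp1, which drives the secretory program, had a geometric mean ratio of 1.76. Jchain gave most of the UMIs of the list, so the list and Jchain are not separate results. Per 10000 UMIs of the Igkv spots above the depth limit, Jchain had 33.9 of the list's 48.1 in WT and 19.4 of 26.0 in Early. It had 28.3 of 40.6 in Advanced 1 and 15.2 of 22.8 in Advanced 2. In the other deep spots Jchain had 11.8 of 18.2 in WT and 6.55 of 12.0 in Early. It had 8.81 of 14.5 in Advanced 1 and 11.7 of 19.1 in Advanced 2. Jchain thus made up most of the excess of the list on each area, and nearly all of it in Early and Advanced 2. The list without Jchain was not tested. Derl3, which acts in the quality control of secreted proteins, and Prdm1, a regulator of plasma cell formation, were also higher on 4 of 4 areas, but rested on few counts, with 59 to 123 and 14 to 31 UMIs on a whole area. The 8 B cell markers were lower on 4 of 4 areas, at 0.431, 0.776, 0.820 and 0.733 of their share in the other deep spots, as were Cd79a, Cd79b and Ighd, which belong to the antigen receptor of resting B cells. The other plasma cell markers were less uniform, with Mzb1 and the sparsely counted Tnfrsf17 (8 to 21 UMIs on an area) higher on 3 of 4 areas, Irf4 on 2 and Sdc1 on 1. Advanced 2 had the smallest ratios for Igkc, Jchain and the plasma cell list.

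The lists for T cells, sinuses, fat and red blood cells were higher on some areas and lower on others. The T cell list was higher on 1 of 4 areas, with ratios of 0.760 to 1.24, the list for sinus macrophages and lymphatic endothelium on 3 of 4 (0.676 to 1.55), the fat list on 3 of 4 (0.443 to 1.29) and the red blood cell list on 1 of 4 (0.181 to 2.45). The germinal centre B cell list, by contrast, was higher on 4 of 4 (1.11 to 1.61), but rested on few counts, with 177 to 515 UMIs on a whole area. Without the depth limit its shares per 10000 UMIs in Igkv and other spots were nearly equal on 2 areas. They were 1.02 against 0.992 in Early and 0.988 against 0.974 in Advanced 2. In WT they were 1.46 against 0.886, and in Advanced 1 1.17 against 0.916. Of the 32 genes and lists compared, 9 were higher and 4 lower on 4 of 4 areas. Each of these had an exact two-sided sign-flip permutation p of 0.125, the smallest possible, and 0.308 after Benjamini-Hochberg adjustment. Above the depth limit the Igkv spots were still the deeper, with medians of 24583, 13611, 12458 and 10351 UMIs against 15159, 12686, 6379 and 6421. The part of this in the ratios was not tested.

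**Figure D5:**
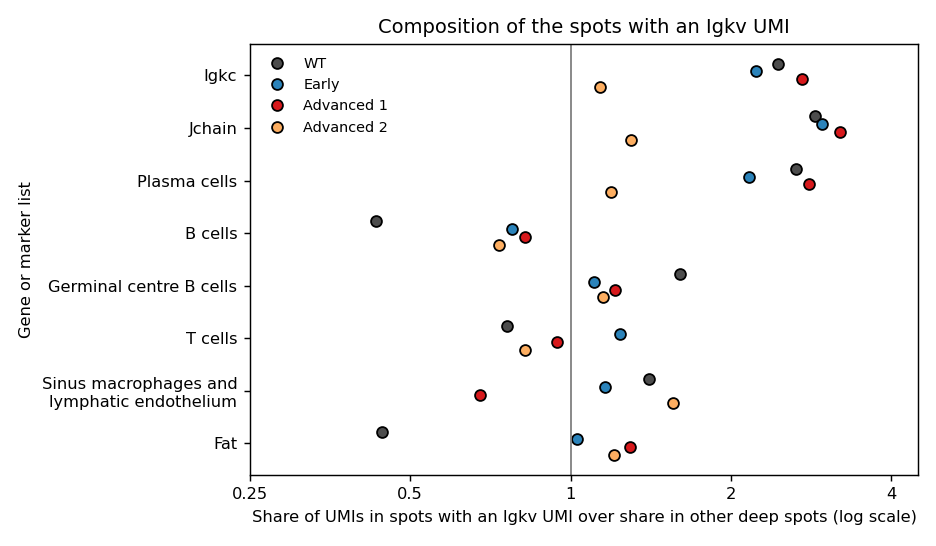
Share of UMIs of a gene or marker list in the spots with an Igkv UMI, divided by its share in other spots above the same depth (log scale), 1 point per area. Igkc, Jchain and the plasma cell markers lie right of 1 and the B cell markers left of 1 on each of the 4 areas. Jchain is itself in the plasma cell list and gives most of its UMIs, and nearly all of its excess in Early and Advanced 2.

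At the tissue edge, defined as spots with fewer than 6 of their 6 adjacent positions under tissue, lay 16 of the 17 Igkv UMIs in WT (94.1%), 36 of 48 in Early (75.0%), 13 of 32 in Advanced 1 (40.6%) and 23 of 46 in Advanced 2 (50%). The edge also held 77.1%, 70.9%, 42.2% and 57.1% of the Igkc UMIs and 79.3%, 75.7%, 47.9% and 64.5% of all UMIs. Edge spots were 30.4%, 32.1%, 15.6% and 22.6% of the spots, so the interior was shallow. In the tissue mask 1 connected piece held 828 of the 833 WT spots, so spots of several nodes were joined. This edge therefore need not be the rim of a node. Images were not used, so whether the interior spots lay within nodes was not checked. The Igkv share at the edge exceeded that of Igkc on 2 areas and fell short on 2, with a mean difference of 3.11 percentage points (SD 10.4, exact permutation p = 0.75 over the 4 areas, two-sided). Igkv10-96 had 2 of 2 UMIs at the edge in WT, 9 of 9 in Early, 0 of 4 in Advanced 1 and 4 of 10 in Advanced 2. In an edgeR fit of edge against interior with the area as a block, 8.04% of the 10998 genes tested passed an adjusted p of 0.05, and 0 Igkv genes had enough counts to be tested. With no filter, 5.67% of all genes passed in edgeR but 0 of the 40 Igkv genes, and 0 had an unadjusted p under 0.05. DESeq2, run with the filter, had 0 Igkv genes to test.

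Whether the UMIs of 1 V gene sat in neighbouring spots could be described only coarsely, because the planned ratio asked for at least 100 UMIs of a gene on an area and 0 genes reached it. Pairs of Igkv UMIs were counted instead, with distance in steps between adjacent spots. Pairs in the same or adjacent spots numbered 17 of 136 in WT (12.5%), 19 of 1128 in Early (1.68%), 16 of 496 in Advanced 1 (3.23%) and 18 of 1035 in Advanced 2 (1.74%). For Igkc these shares were 6.11%, 1.91%, 3.07% and 1.36%, and the Igkv share was above the Igkc share on 3 of the 4 areas. For pairs in the same spot alone, the shares were 2.94%, 1.15%, 0.806% and 1.06% for Igkv against 2.07%, 0.645%, 0.904% and 0.466% for Igkc. They rested on 4, 13, 4 and 11 Igkv pairs, and the difference was not tested.

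Among these close pairs, the 2 UMIs were of the same V gene in 4 of 17 pairs in WT (23.5%), 5 of 19 in Early (26.3%), 1 of 16 in Advanced 1 (6.25%) and 9 of 18 in Advanced 2 (50%). Among pairs more than 10 steps apart the shares were 0%, 5.82%, 5.60% and 6.41%. The share was larger among close than among distant pairs on 4 of 4 areas, by a mean of 22.1 percentage points (SD 17.6). The exact sign-flip permutation p was 0.125, two-sided, the smallest possible, so it could not pass 0.05. The excess was mostly within single spots. Pairs in the same spot were of 1 gene in 4 of 4, 4 of 13, 1 of 4 and 6 of 11 cases, whereas pairs in adjacent spots were of 1 gene in 0 of 13, 1 of 6, 0 of 12 and 3 of 7. Pairs share UMIs and spots, so they are not independent.

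The single spots show what these pairs are. Of the 18 spots with 2 or more Igkv UMIs, 7 held 1 gene only, and of the 7 spots with 3 UMIs, 3 held 1 gene only. An edge spot of the WT area held all 3 UMIs of Igkv3-1 on that area, beside 6486 Igkc UMIs and 53647 UMIs in all. In Advanced 2, an interior spot held 3 UMIs of Igkv3-4 beside 197 Igkc UMIs, and another held the only 3 UMIs of Igkv19-93 in the series beside 117 Igkc UMIs and 999 UMIs in all. An interior spot of the Early area was unlike these, with 2 UMIs of Igkv5-39 beside 1 Igkc UMI and 228 UMIs in all. The other 3 held 2 UMIs each, of Igkv14-111 in WT and of Igkv4-51 and Igkv3-1 in Early, beside 888, 113 and 773 Igkc UMIs. These spots were singled out after their values were seen. A spot can hold several cells, and whether UMIs of 1 gene in a spot came from 1 cell was not tested.

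All 4 pairs of adjacent spots with the same V gene were of Igkv10-96. In Advanced 2, the 10 UMIs of Igkv10-96 lay in 10 spots, with 3 of the 45 pairs in adjacent spots, 2 at 2 steps and a median distance of 27 steps. On the Early area its 9 UMIs lay in 8 spots, with 1 of the 36 pairs in the same spot, 1 in adjacent spots and a median distance of 24.5 steps, and in Advanced 1 its 4 UMIs lay a median of 21.5 steps apart. Most pairs of Igkv10-96 UMIs were thus far apart on areas that each held nodes of 3 mice, and few were in adjacent spots. Igkv2-109 had 0 pairs in the same or adjacent spots, with medians of 20, 31.5 and 35 steps in Early and the 2 Advanced areas.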

How the data were processed

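Spatial transcriptomics (Visium) was performed by the authors on PLN sections on 4 capture areas. Per the labels, Space Ranger 1.1.0 and the mm10 (GRCm38) build were named in the submitters' processing notes. The deposited values were raw UMI counts per feature and spot under tissue, with no normalization. Counts were summed per area, or per area and region, since spots are not replicates. Of 3110 barcodes, 1798 occurred on 2 or more areas, which is a feature of the fixed spot array. Gene positions, biotypes and V exon sequences were taken from GENCODE M21 (GRCm38), and windows of 90 bases, the read length, were compared between Igkv transcripts with no mismatch allowed.

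Fits used edgeR 4.0.16 (TMM, filterByExpr, quasi-likelihood test, Benjamini-Hochberg adjustment over all genes tested) in R 4.3.3, with DESeq2 1.42.0 as an alternative. Exact tests and intervals used scipy 1.17.1 in Python 3.11.15, and V exons were aligned with Biopython 1.88. The scripts were tested on simulated data. Depth was 1808678 to 5180493 UMIs per area, and intervals cover counting error only. P-values of the exact tests measure the spread between the 4 areas. Those of the fits between groups rest on the 2 Advanced areas and on variance shared across genes. They measure no spread within WT or Early, which had 1 area each. Those of the edge fit rest on how far the difference between edge and interior varied between areas.

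Named were the 10 Igkv genes with the largest mean share, the leading genes of each area, Igkv genes past an adjusted p of 0.05, and a list of 31 kappa and antibody genes. The members and lists were chosen with earlier results of these data known. The UMI pairs replaced the planned neighbour ratio after the counts had been seen. Images and scale factors were not used.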

Additional observations from a re-analysis of the deposited data

How the results depend on the processing

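The number of Igkv genes called stayed at 0 in both comparisons between areas with RLE size factors, no filter, immunoglobulin genes left out of the library size, only spots of at least 500 UMIs and DESeq2. The log2 difference of Igkv10-96 turned to -0.63 (Advanced minus Early) and -0.025 (Advanced minus WT) without Advanced 2, and was 0.77 and 1.37 without Advanced 1. These fits had no residual degrees of freedom and gave no test. Between edge and interior no Igkv gene could be tested except with no filter. Without the replicate block that pairs the edge and interior of an area, 159 of all genes were called instead of 884, with 564 in spots of at least 500 UMIs, 421 by DESeq2 and 279 to 1136 when 1 area was left out (279 without Advanced 2 and 451 without the Early area). DESeq2 called 7 instead of 152 genes between the Advanced and Early areas and 33 instead of 272 between the Advanced and WT areas.

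On each area the Igkv level stayed within its counting interval in spots of at least 500 UMIs and with non-immunoglobulin UMIs as the denominator, and the share of the first 5 genes did so in spots of at least 500 UMIs and without pseudogenes. Leaving out the top spot of each gene raised the share of the first 5 genes to 100% in WT, 77.3% in Early, 85.7% in Advanced 1 and 75% in Advanced 2, since genes with 1 UMI are then lost. The share of close pairs that were of 1 gene, a measure added after the counts had been seen, fell without the top spot of each gene to 0% in WT and Advanced 1, 7.69% in Early and 25% in Advanced 2. Most of these pairs lay within single spots, which this step removes, so the fall was largely fixed in advance. Pairs of adjacent spots alone gave 0% in WT and Advanced 1, and pairs within 3 steps gave 24.4% in Advanced 2. The planned neighbour ratio and its alternatives gave no value, since 0 genes had 100 or 50 UMIs on an area.

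With 143 UMIs in all, V gene usage, differences between areas and clumping of single genes were resolved only to the intervals given. WT and Early had 1 area each, and 4 areas cannot give an exact p under 0.125.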
